A study of Saccharomyces cerevisiae with 34 samples.

Results

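The comparison set *psh1Δ pGAL-3Flag-CSE4* strains against wild type (WT) before galactose was added, that is, with the *GAL* promoter uninduced. It used 6 of the 34 libraries of the series, chosen by the genotype and time given in the sample labels: 3 *psh1Δ pGAL-3Flag-CSE4* and 3 WT libraries at 0 h, 1 of each in each of 3 batches. RNA-seq counted messenger RNA in log-phase budding yeast grown in YEP with lactic acid at 23 °C, and the study went on to add 2% galactose and sample the same cultures again at 2 h. The *psh1Δ pGAL-3Flag-CSE4* strains lack *PSH1* (titled *psh1∆KAN*, the gene replaced by a drug resistance marker) and carry a plasmid with a tagged *CSE4* under the *GAL* promoter and a functional *LEU2* gene, integrated at the mutant *leu2-3,112* locus. WT strains have neither. All are *Rad5+* haploids that the study's strain list gives as W303, *MATa*, with *can1-100*, *ade2-1*, *his3-11*, *trp1-1*, *ura3-1*, *bud4*, *leu2-3,112* and *bar1-1* alleles. Each batch of a genotype was a different strain, so n = 3 counts strains and cultures together. 3 *psh1Δ* libraries without the plasmid and 2 *pGAL-3Flag-CSE4* libraries with *PSH1* intact (batches 2 and 3), all at 0 h, were set beside them.

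Cse4 is the budding yeast CENP-A, the histone H3 variant that marks centromeres, and Psh1 is the ubiquitin ligase that sends excess Cse4 to proteolysis. The *GAL* promoter is driven by Gal4 only when galactose is present, and lactic acid neither induces nor represses it. *LEU2* encodes isopropylmalate dehydrogenase of leucine synthesis, and the genes of that pathway are activated by Leu3, a DNA-binding protein that works as an activator when bound to alpha-isopropylmalate, the intermediate made by Leu4 and Leu9.

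The largest called group was that of leucine and branched-chain synthesis, so the Leu3 recognition sequences found before called genes are shown before the values. The letters CCGGNNCCGG, which read the same on both strands, occurred in the 500 bases before the coding sequence of 18 of 6209 genes (0.29%), of 7 of the 35 genes called lower (20.0%) and of 0 of the 11 called higher. *LEU2*, which was not called, is printed with the 7. Coordinates are those of sacCer3, each sequence runs 5′ to 3′ on the strand of its gene, and capitals mark the matched letters:
LEU1 (chrVII:478850-478879, minus strand): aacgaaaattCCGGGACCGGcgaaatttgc
BAT1 (chrVIII:517375-517404, plus strand): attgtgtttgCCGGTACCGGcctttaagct
ILV5 (chrXII:839611-839640, minus strand): gcggtctcctCCGGTACCGGttctgccacc
ILV2 (chrXIII:483606-483635, plus strand): ccggagcctgCCGGTACCGGcttggcttca
GDH1 (chrXV:1043427-1043456, minus strand): aaccaatgcgCCGGAACCGGcccatgcatt
DRE2 (chrXI:576128-576157, minus strand): ttgacatatcCCGGTACCGGaataagtccg
FSF1 (chrXV:832176-832205, minus strand): gtactggcgtCCGGTACCGGagcgtaccag
LEU2 (chrIII:91116-91145, plus strand): ggtgagagcgCCGGAACCGGcttttcatat

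The matched letters lay between 137 (*BAT1*) and 458 (*ILV2*) bases before the start of the coding sequence. Of the 8 branched-chain genes called lower 4 held the letters, and *OAC1*, *ILV3*, *LEU4* and *LEU9* did not within this window. The letters TGACTC, the core of the Gcn4 site of amino acid synthesis genes, were present on either strand before 16 of the 35 genes called lower (45.7%), 0 of the 11 called higher and 13.1% of all genes. A match describes the sequence and is not evidence of binding.

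*PSH1* was measured to check the labels. It had 0, 2 and 1 counts in the 3 *psh1Δ pGAL-3Flag-CSE4* libraries, against 241, 205 and 225 counts in WT, a ratio of 0.0047 once library totals were accounted for (exact 95% interval 0.000967 to 0.0138, counting error only). The *PSH1* part of the labels thus matched in all 6 libraries, and this does not check the plasmid. Of the 9 marker loci of these strains, *URA3*, *HIS3*, *TRP1*, *ADE2*, *CAN1*, *BUD4*, *RAD5* and *LEU2* were not called and *BAR1* was called lower.

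Across all genes, 46 of 6209 (0.741%) passed the limits of an adjusted p under 0.05 and at least a 1.5-fold change, by edgeR's quasi-likelihood test with batch as a block. In *psh1Δ pGAL-3Flag-CSE4* cells 11 genes were higher (0.177%) and 35 were lower (0.564%), and all 46 kept their direction in every batch. In 33 of the 46 the libraries of the 2 genotypes did not overlap in CPM, counts scaled to a common library size, against 9.26% of all genes. The median log2 change over all genes was -0.00112. At an unadjusted p under 0.05 by the same test, 603 of the 6209 genes passed, 310 higher and 293 lower. The counts at that level given for gene lists below stand beside this background. Without the batch term the same counts gave 8 calls, all among the 46.

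**Figure D1:**
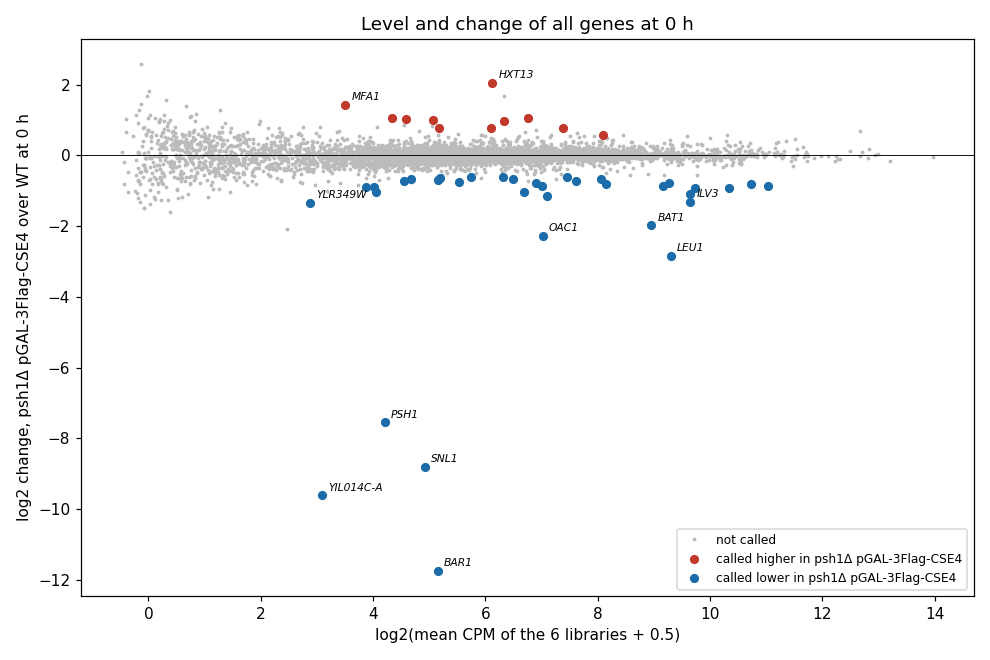
Log2 change in *psh1Δ pGAL-3Flag-CSE4* over WT at 0 h (vertical) against log2 of the mean CPM of the 6 libraries plus 0.5 (horizontal, not corrected for gene length), with 1 point for each gene. Red points are the 11 genes called higher, blue points the 35 called lower, and names are given for the larger changes. *LEU1*, *OAC1* and *BAT1* lie below well measured genes of similar level, and *PSH1*, *SNL1*, *YIL014C-A* and *BAR1* lie at the bottom of the plot.

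The genes of leucine and branched-chain amino acid synthesis were the group with the most called genes. Of 13 members, 8 were lower in *psh1Δ pGAL-3Flag-CSE4* cells, 0 were higher by edgeR or by DESeq2 (1 at an unadjusted p under 0.05), and the median log2 change was -0.77. *LEU1*, the isomerase that follows alpha-isopropylmalate, was measured at 105, 131 and 247 CPM in *psh1Δ pGAL-3Flag-CSE4* cells, against 929, 989 and 1392 CPM in WT. Every library of the strain was below every WT library, a 7.18-fold difference (log2 change -2.84 ± 0.13, SE, edgeR adjusted p = 9.29e-06). *OAC1*, which carries isopropylmalate and oxaloacetate across the mitochondrial membrane, had 39.1, 43.5 and 49.9 CPM, against 197, 182 and 262 CPM in WT (log2 change -2.26 ± 0.09, adjusted p = 7.68e-06). *BAT1*, the mitochondrial branched-chain aminotransferase, had 143, 182 and 285 CPM, against 654, 688 and 1014 CPM in WT (-1.98 ± 0.09, adjusted p = 9.29e-06). The 3 genes thus fell 3.93-fold to 7.18-fold, with no overlap between genotypes.

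The other called members changed less. *ILV3*, the dihydroxyacid dehydratase, had 329.9, 375 and 719 CPM in *psh1Δ pGAL-3Flag-CSE4* cells and 996, 1043 and 1339 CPM in WT, 2.49-fold lower (edgeR adjusted p = 0.00286). *LEU4*, the main isopropylmalate synthase, had 975, 938 and 717 CPM, against 1857, 2094 and 1162 CPM in WT (log2 change -0.93 ± 0.10, adjusted p = 0.00545). Batch 3 was the lowest library in both genotypes for *LEU4* and the highest for *LEU1*, *BAT1* and *ILV3*, while the difference within each batch kept its direction. *ILV5*, the reductoisomerase, and *ILV2*, the catalytic subunit of acetolactate synthase, were 1.81-fold and 1.71-fold lower, with adjusted p of 0.00598 and 0.00334. *LEU9*, the second isopropylmalate synthase, was 1.52-fold lower (adjusted p = 0.0305) and is the weakest call of the group: without batch 1 its log2 change was -0.46 and without batch 3 it was -0.66 with an adjusted p of 0.0729, in a range over 14 alternatives of 4.68e-05 to 1.

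The 5 remaining members were not called. *LEU3*, the activator itself, had 49.95, 51.1 and 57.4 CPM in *psh1Δ pGAL-3Flag-CSE4* cells, against 49.8, 50.6 and 54.4 CPM in WT (log2 change 0.04 ± 0.08). *ILV6*, the regulatory subunit of acetolactate synthase, and *ILV1*, the threonine deaminase of isoleucine synthesis, had log2 changes of 0.11 ± 0.09 and -0.01 ± 0.07. *BAT2*, the cytosolic aminotransferase, had a log2 change of 0.37 ± 0.08 (adjusted p = 0.0851). *LEU2* had 239, 174 and 320.2 CPM, against 296, 296 and 300.1 CPM in WT (log2 change -0.32 ± 0.14, adjusted p = 0.513). Counts do not separate reads of the mutant *leu2-3,112* allele, present in both genotypes, from those of the plasmid copy, so these values are a sum over both in the plasmid strain.

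**Figure D2:**
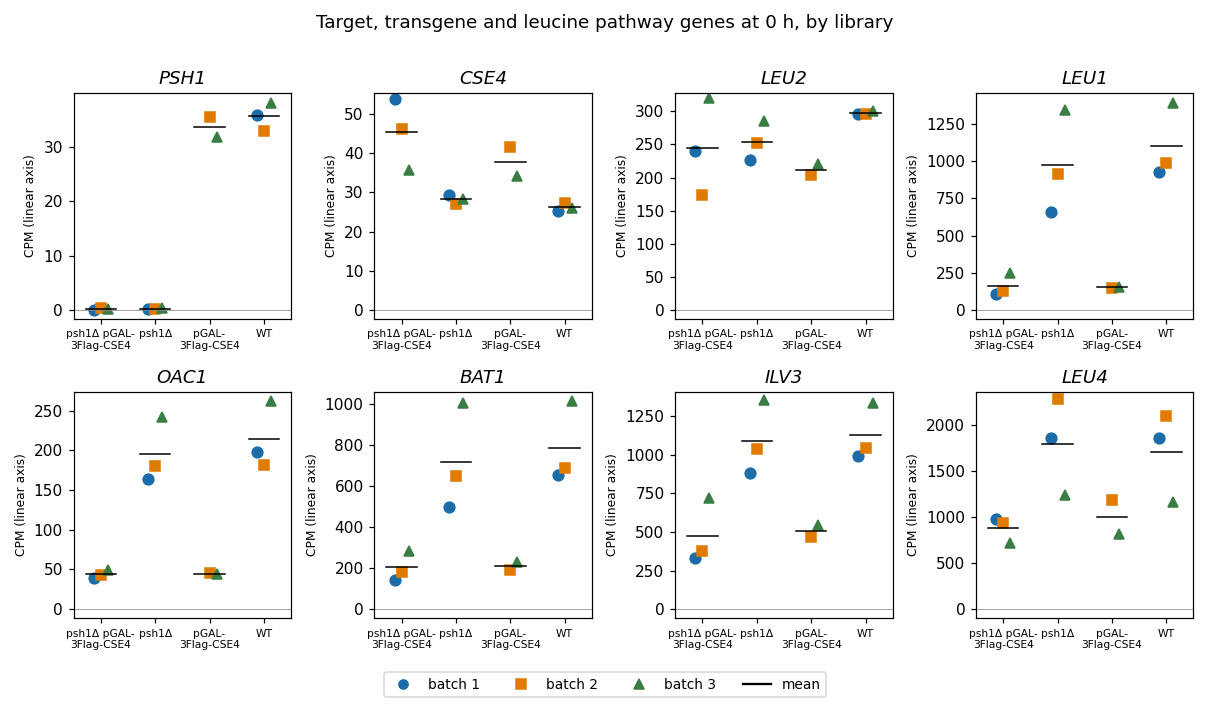
CPM at 0 h (vertical, linear) of *PSH1*, *CSE4*, *LEU2* and 5 leucine pathway genes in the 4 genotypes (horizontal), with 1 symbol for each library, shaped by batch, and a line at the mean. *PSH1* is near 0 in both deletion genotypes, and *LEU1*, *OAC1*, *BAT1* and *ILV3* are low in both genotypes that carry the plasmid and high in *psh1Δ* and WT.

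The genotypes with a single change show where the group differs. In *pGAL-3Flag-CSE4* cells *LEU1* had 148 and 155 CPM in batches 2 and 3, and in *psh1Δ* cells it had 656, 915 and 1340.1 CPM. Against WT the log2 change of *LEU1* was -2.95 ± 0.13 in *pGAL-3Flag-CSE4* (adjusted p = 9.91e-05) and -0.22 ± 0.08 in *psh1Δ* (adjusted p = 0.295). The group's median log2 change was -0.66 in *pGAL-3Flag-CSE4*, with 6 of 13 members called, and -0.05 in *psh1Δ*. These 2 comparisons use the same WT libraries as the main one, so their values stand side by side and are not separate evidence. Over all genes they called 27 (0.435%) in *pGAL-3Flag-CSE4* and 2 (0.0322%), *PSH1* and *ADY2*, in *psh1Δ*. The direct comparison of *psh1Δ pGAL-3Flag-CSE4* with *psh1Δ*, which uses no WT library, called 31 genes (0.499%), 30 of them lower, among them *LEU1* (-2.63, adjusted p = 7.65e-06), *OAC1*, *BAT1*, *ILV3*, *LEU4*, *ILV5* and *ILV2*. Without batch 1, 2 and 3 this count was 8, 45 and 72, and that of *psh1Δ* against WT was 3, 41 and 14. The comparison of *psh1Δ pGAL-3Flag-CSE4* with *pGAL-3Flag-CSE4*, over batches 2 and 3 only, called 3 genes (0.0483%), *PSH1*, *BAR1* and *SNL1*. Its *BAR1* and *SNL1* calls rest on batch 2, where *pGAL-3Flag-CSE4* had 310 and 368 counts. In batch 3 *pGAL-3Flag-CSE4* had 0 counts of both. The plasmid carries *LEU2* and the uninduced *CSE4* together, and their parts in these values cannot be told apart.

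Genes outside that list were also called lower. *ALD5*, a mitochondrial aldehyde dehydrogenase, had 60.3, 96.7 and 96.2 CPM, against 147, 166 and 251 CPM in WT, 2.21-fold lower without overlap (adjusted p = 0.00286). *GDH1*, the glutamate dehydrogenase that assimilates ammonium, had 783, 941 and 2114 CPM, against 1636, 1584 and 3160.3 CPM in WT (log2 change -0.80 ± 0.11, adjusted p = 0.0131), and its call was lost without batch 2 (-0.82, adjusted p = 0.0604, in a range over 14 alternatives of 1.46e-08 to 1). *GDH1* was the 1 gene called of 29 nitrogen catabolite genes, whose median log2 change was -0.05, with 2 higher and 7 lower at an unadjusted p under 0.05. *MAE1*, the mitochondrial malic enzyme, had a log2 change of -0.87 ± 0.13 (adjusted p = 0.0203). In *pGAL-3Flag-CSE4* against WT the same genes had log2 changes of -1.30 (*ALD5*), -0.93 (*GDH1*) and -0.69 (*MAE1*), all called, and in *psh1Δ* of -0.18, -0.07 and 0.08, none called. 14 genes had an adjusted p under 0.05 but fell short of 1.5-fold. Among them, and named after their values were seen, were *HOM2* (-0.55 ± 0.08), the aspartate semialdehyde dehydrogenase, *BAP2* (-0.55 ± 0.08), a branched-chain amino acid permease, *GAP1* (-0.52 ± 0.07), the general amino acid permease, and *CDC60* (-0.43 ± 0.07), the leucyl-tRNA synthetase. Of the same 14, *MCH4* (0.54), *UPS2* (0.50), *YFR052C-A* (0.465), *IRC14* (0.44) and *PLB2* (0.40) were higher. The others, *MNE1* (-0.50), *PAN5* (-0.48), *PCL7* (-0.43), *ADE12* (-0.425) and *YSA1* (-0.40), were lower. On the other side of the fold limit lay *TMA10* (0.59 ± 0.08), *LEU9* and *ADE17* (-0.62 ± 0.11).

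Of the 28 sulfate and methionine genes measured, 1 was called, with 11 lower and 1 higher at an unadjusted p under 0.05 and a median log2 change of -0.14. *MET6*, the methionine synthase, had 939, 581 and 297 CPM in *psh1Δ pGAL-3Flag-CSE4* cells, against 1291, 1420.4 and 587 CPM in WT (log2 change -0.91 ± 0.14, adjusted p = 0.0261). The 2 ranges overlapped because batch 3 was low in both genotypes. Its call was lost without batch 2 (-0.71, adjusted p = 0.0508) or batch 3 (-0.87, adjusted p = 0.0968), in a range of 1.13e-06 to 1 over 14 alternatives. *GCV2*, a subunit of glycine decarboxylase, had a log2 change of -0.66 ± 0.10 and *ADE17*, of purine synthesis, one of -0.62 ± 0.11, with adjusted p of 0.0261 and 0.0475. Without batch 2 neither was called (-0.54 and -0.60), and without batch 1 *ADE17* was at -0.48. Among the 12 arginine, 9 lysine and 20 histidine, tryptophan and aromatic genes, 0 were called by edgeR or DESeq2, their medians were -0.06, 0.09 and -0.03, and 3 lysine genes were higher and 1 gene of each other list lower at an unadjusted p under 0.05.

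The pentose phosphate and carrier genes that were called lower varied by batch. *GND1*, the major phosphogluconate dehydrogenase, had 325, 415 and 902 CPM in *psh1Δ pGAL-3Flag-CSE4* cells, against 909, 1043 and 1221 CPM in WT (log2 change -1.08 ± 0.18, adjusted p = 0.0321), and its call was lost without batch 2 (-0.95, adjusted p = 0.079, in a range of 2.5e-06 to 1). Its paralog *GND2* was at -0.66 ± 0.12 (adjusted p = 0.0493) and lost its call without batch 1 (-0.48) or batch 3 (-0.65). *GCY1*, an aldo-keto reductase that Gal4 also regulates, had 192, 263 and 143 CPM, against 411, 505 and 188 CPM in WT (-0.82 ± 0.12, adjusted p = 0.0241). *DIC1*, the mitochondrial dicarboxylate carrier, was at -1.04 ± 0.16 and *SFC1*, the succinate and fumarate carrier, at -0.86 ± 0.12. *SFC1* was the 1 gene called of 16 gluconeogenesis and glyoxylate genes (median -0.05). It showed the widest spread between batches of these, with 579, 695 and 19.4 CPM against 1017, 1076 and 49.5 CPM in WT. *YLR349W* (-1.34 ± 0.21) overlaps *DIC1* on the opposite strand, and the library kit does not keep the strand, so reads of the 2 genes cannot be told apart. Its call was lost without batch 1 (-1.27) or batch 2 (-1.22). *GND1*, *GCY1*, *LEU4*, *ISU2* and *MAE1* also overlap annotated genes on the other strand.

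*DRE2*, of cytosolic iron-sulfur cluster assembly, was steady between batches, with 84.0, 89.9 and 89.9 CPM in *psh1Δ pGAL-3Flag-CSE4* cells, against 146, 151 and 155 CPM in WT (log2 change -0.77 ± 0.07, adjusted p = 0.00173). *ISU2*, a scaffold for cluster assembly, had 9.89, 11.6 and 10.9 CPM, against 18.5, 17.4 and 25.3 CPM in WT (-0.90 ± 0.15, adjusted p = 0.0386), and was not called without batch 3 (-0.74, adjusted p = 0.145, in a range of 7.25e-06 to 0.309). *FSF1*, a mitochondrial carrier of the sideroflexin family, was at -0.71 ± 0.07 (adjusted p = 0.00273). Of the 31 iron regulon genes, 2 were called lower, *ISU2* and *LEU1*, whose product itself holds an iron-sulfur cluster. None was called higher by edgeR or DESeq2, although 10 were higher at an unadjusted p under 0.05. The list's median log2 change was 0.34 in batch 1, 0.80 in batch 2 and -0.18 in batch 3, and 2 genes were called higher when batch 3 was left out. *FIT3*, a cell wall protein for siderophore uptake, had 9321, 13732 and 2287 CPM, against 6382, 5216 and 2148 CPM in WT (log2 change 0.68 ± 0.22, adjusted p = 0.351). In *pGAL-3Flag-CSE4* against WT, over batches 2 and 3 only, 10 of the 31 genes were called and the median was 0.56. The 10 include *LEU1*, which was lower (log2 change -2.95). Without the batch term that comparison called 0 genes.

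*CSE4* had 53.8, 46.2 and 35.7 CPM in *psh1Δ pGAL-3Flag-CSE4* cells, against 25.2, 27.4 and 26.0 CPM in WT, a 1.72-fold rise without overlap (log2 change 0.78 ± 0.13, adjusted p = 0.0298). The plasmid and the chromosomal gene share the counted sequence, so the values add up both, and no value here assigns the rise to either copy. The call was lost without batch 2 (0.79, adjusted p = 0.0762, in a range of 3.44e-06 to 0.318 over 14 alternatives). *CSE4* was at 41.5 and 34.1 CPM in *pGAL-3Flag-CSE4* cells and at 29.3, 27.1 and 28.2 CPM in *psh1Δ* cells, neither called against WT. After 2 h in galactose it had 21978, 14373 and 15151 CPM in *psh1Δ pGAL-3Flag-CSE4* cells. The chromosomal galactose genes were not called at 0 h, apart from *GCY1*: *GAL1*, the galactokinase, had 27.6, 27.2 and 44.5 CPM, against 25.5, 30.0 and 37.3 CPM in WT (log2 change 0.09 ± 0.11). *GAL10*, *GAL7*, *GAL2*, *GAL3*, *GAL80* and the activator *GAL4* had log2 changes between -0.15 and 0.16.

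Of the 23 genes for Cse4 and its turnover, *CSE4* and *PSH1* were the 2 called. None of the 48 kinetochore genes or the 24 INO80 and SWR1 remodeller genes was called by edgeR or DESeq2, and at an unadjusted p under 0.05 there was 1 kinetochore gene (*ASK1*, log2 change 0.23) and 0 remodeller genes. The 10 histone genes had a median log2 change of 0.15, against -0.00112 over all genes, with 0 called by edgeR or DESeq2 and 5 higher at an unadjusted p under 0.05. Linker histone *HHO1* (0.30 ± 0.07, adjusted p = 0.129) and *HTA1*, an H2A gene (0.33 ± 0.08, adjusted p = 0.168), led them. The genes next to *PSH1* on chromosome XV, *THI20* and *AIM39*, had log2 changes of -0.06 and -0.24. Neither these nor any other gene within 10 kb of *PSH1*, *LEU2* or *CSE4* (10, 8 and 13 genes) was called by edgeR or DESeq2, with 1 higher and 4 lower at an unadjusted p under 0.05.

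A second set of called genes lay at the *BAR1* locus. *BAR1*, the protease that degrades alpha-factor, had 0 counts in each of the 3 *psh1Δ pGAL-3Flag-CSE4* libraries, against 471, 357 and 489 counts in WT, at least 133-fold lower against a floor of 3 counts per library. *SNL1*, an Hsp70 cofactor beside it on chromosome IX, had 2, 0 and 0 counts, against 368, 416 and 341 in WT (ratio 0.00187, exact 95% interval 0.000226 to 0.00677, counting error only). *YIL014C-A* had 0 counts in each, against 105, 116 and 83 in WT, at least 30.5-fold lower. All WT libraries thus held *BAR1* counts and no *psh1Δ pGAL-3Flag-CSE4* library did, while the strain list gives the same *bar1-1* allele for every strain. *VID28*, a subunit of the GID ubiquitin ligase on the other side of *SNL1*, was higher, with 133, 145 and 162 CPM, against 70.7, 70.5 and 67.4 CPM in WT (log2 change 1.07 ± 0.09, adjusted p = 0.000935).

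The state of this locus did not follow the genotype in the other strains. *BAR1* had 0 and 0 counts in *psh1Δ* batches 1 and 2 but 463 in batch 3, and 310 counts in *pGAL-3Flag-CSE4* batch 2 but 0 in batch 3. *SNL1* had 0, 0 and 285 counts in *psh1Δ* and 368 and 0 in *pGAL-3Flag-CSE4*. *VID28* was at 153 and 159 CPM in *psh1Δ* batches 1 and 2 and 65.9 CPM in batch 3, and at 64.5 and 138 CPM in *pGAL-3Flag-CSE4* batches 2 and 3. *VID28* was thus high in the libraries in which *BAR1* had 0 counts. Within the main comparison the locus and the genotype cannot be told apart. With all 17 libraries at 0 h in 1 fit, *BAR1*, *SNL1*, *YIL014C-A* and *VID28* were not called (edgeR adjusted p = 0.104, 0.0621, 0.0935 and 0.0795), although the log2 change of *VID28* was 1.08, between 0.97 and 1.16 over 14 alternatives.

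Of 32 mating pathway genes measured, 4 were called higher in *psh1Δ pGAL-3Flag-CSE4* cells and 1 lower (*BAR1*), and the median log2 change was 0.09. At an unadjusted p under 0.05 by edgeR, 12 of the 32 were higher and 1 lower. *MFA1*, a precursor of a-factor, had 20.9, 11.8 and 14.7 CPM in *psh1Δ pGAL-3Flag-CSE4* cells, against 4.92, 4.67 and 8.11 CPM in WT (log2 change 1.43 ± 0.23, adjusted p = 0.0311), and lost its call without batch 2 (1.46, adjusted p = 0.0505, in a range of 3.3e-07 to 0.331). *AGA2* and *AGA1*, the subunits of a-agglutinin, had 30.0, 21.1 and 28.3 CPM and 137, 88.5 and 96.0 CPM, against 12.4, 12.2 and 13.7 CPM and 53.4, 48.6 and 58.5 CPM in WT. Their log2 changes were 1.05 ± 0.14 and 0.99 ± 0.12, without overlap between genotypes. *SST2*, which switches off the pheromone receptor's G protein, had 54.0, 28.3 and 50.7 CPM, against 21.5, 18.0 and 25.9 CPM in WT (1.01 ± 0.13, adjusted p = 0.0131).

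Other members were not called. *STE2*, the alpha-factor receptor, had 503, 278 and 472 CPM, against 273, 224 and 333 CPM in WT, which overlapped (0.57 ± 0.11, adjusted p = 0.0542). Without batch 2 *STE2* was called (0.69, adjusted p = 0.0203, in a range of 0.000595 to 1 over 14 alternatives). *FUS1*, a cell fusion gene that pheromone strongly induces, had 19.5, 8.06 and 12.8 CPM, against 13.7, 14.5 and 13.7 CPM in WT (-0.07 ± 0.23). The called genes differed between libraries of a genotype in the other strains: *AGA2* was at 33.6, 22.5 and 16.9 CPM in *psh1Δ* and at 9.41 and 37.4 CPM in *pGAL-3Flag-CSE4*, and *SST2* at 50.1, 29.1 and 23.3 CPM in *psh1Δ* and at 16.6 and 49.1 CPM in *pGAL-3Flag-CSE4*. Within each of these genotypes, *AGA2* and *SST2* were higher in the libraries in which *BAR1* had 0 counts. The part of the *BAR1* locus in these changes was not tested. With all 17 libraries at 0 h in 1 fit, *MFA1*, *AGA1*, *AGA2* and *SST2* had similar log2 changes (1.43, 1.00, 1.05 and 1.01) and were not called, with adjusted p of 0.194, 0.104, 0.179 and 0.0969 from edgeR. Over all 14 alternatives their adjusted p ranged from 2.52e-10 to 0.669, and their log2 changes stayed between 0.79 and 1.76. The 6 genes high in *MATa* cells summed to 848.4, 500.2 and 825.8 CPM in *psh1Δ pGAL-3Flag-CSE4* and 494.0, 421.3 and 600.3 CPM in WT. 3 genes that are high in the other mating type summed to 48.2, 57.7 and 62.0 CPM in *psh1Δ pGAL-3Flag-CSE4* and 60.3, 60.1 and 54.2 CPM in WT, most of it from *SAG1*.

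**Figure D3:**
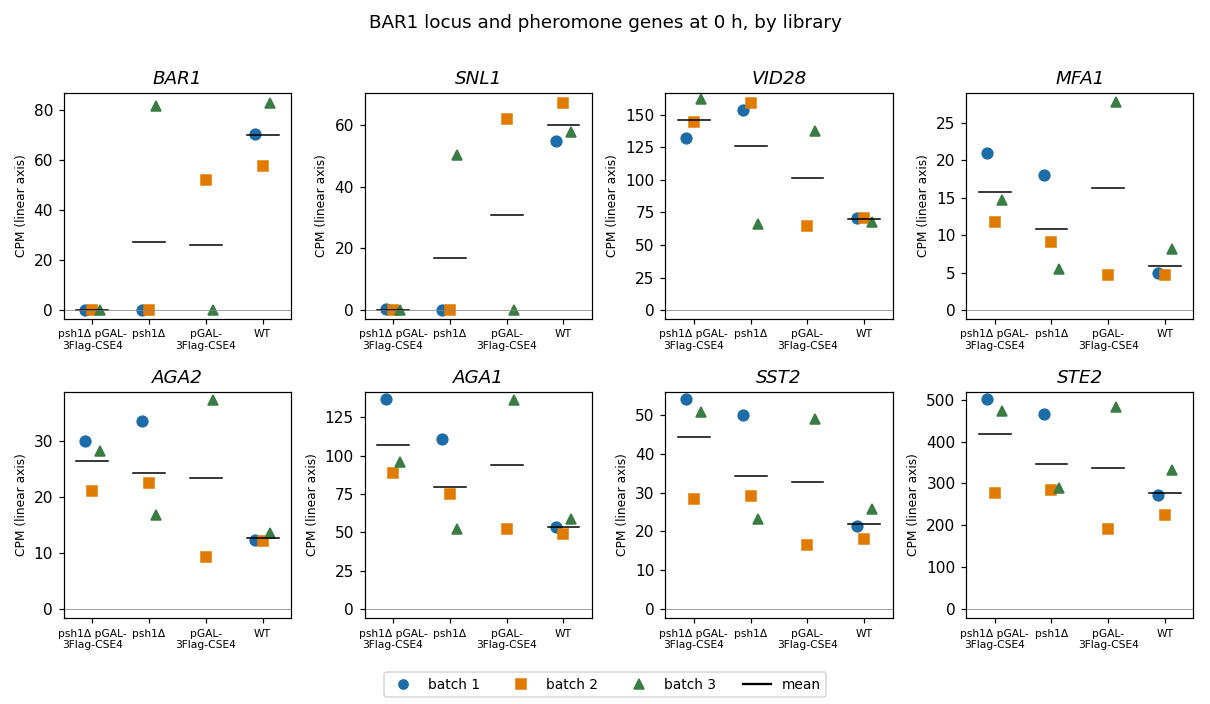
CPM at 0 h (vertical, linear) of 3 genes of the *BAR1* locus and 5 pheromone genes in the 4 genotypes (horizontal), with 1 symbol for each library, shaped by batch, and a line at the mean. *BAR1* and *SNL1* are at or near 0 in all 3 *psh1Δ pGAL-3Flag-CSE4* libraries, in *psh1Δ* batches 1 and 2 and in *pGAL-3Flag-CSE4* batch 3, the libraries in which *VID28* is high.

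The pheromone response element TGAAACA was searched on both strands of the same upstream windows. It was present before 6 of the 11 genes called higher (54.5%), 24 of the 32 mating genes (75.0%) and 716 of all 6209 (11.5%). All matches before the 4 mating genes called higher are printed because those genes rose together, with capitals for the matched letters, TGTTTCA being the same element on the other strand. *BAR1*, called lower, also has 2 matches, which are not printed:
MFA1 (chrIV:1384853-1384881, plus strand): cattcacgatcTGTTTCAgtgttcagaaa
AGA1 (chrXIV:703486-703514, plus strand): acataattttcTGAAACAatattaaaaca
AGA2, nearer match (chrVII:437015-437043, minus strand): aattaagggacTGTTTCAtaccttcagat
AGA2, farther match (chrVII:437211-437239, minus strand): tttcaagaattTGTTTCAacctgccggca
SST2 (chrXII:1041594-1041622, minus strand): atattcaatttTGAAACAatgatcccaat

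The largest rise was that of *HXT13*, of the hexose transporter family. It had 40.1, 129 and 154 CPM in *psh1Δ pGAL-3Flag-CSE4* cells, against 8.50, 13.7 and 69.6 CPM in WT (log2 change 2.05 ± 0.32, adjusted p = 0.0258). The genotypes overlapped, and the difference was larger in batches 1 and 2 than in batch 3, where WT was also high. A read-length stretch of *HXT13* occurred nowhere else in the genome in 68.2% of cases, so reads shared with near copies make its level uncertain. *DSF1*, a mannitol dehydrogenase gene next to it on chromosome V, had a similar pattern, with 25.1, 84.7 and 223 CPM, against 6.71, 8.70 and 133 CPM in WT, and was not called (1.68 ± 0.37, adjusted p = 0.105).

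The other genes called higher were *YJL133C-A* (1.02 ± 0.13), *PHO3*, *CHA1* and *TMA10*, which binds ribosomes (0.59 ± 0.08). *PHO3*, a thiamine-regulated acid phosphatase, had 85.3, 79.7 and 93.6 CPM, against 58.0, 47.5 and 45.6 CPM in WT (0.78 ± 0.10, adjusted p = 0.013), and 91.3% of its read-length stretches were unique. *CHA1*, the serine and threonine deaminase, had 269.7, 308 and 54.6 CPM, against 163, 162 and 36.3 CPM in WT (0.77 ± 0.08, adjusted p = 0.0047). Batch 3 was lower in both genotypes for *CHA1*. *YJL133C-A* was not called without batch 3 (0.91, adjusted p = 0.0968) and *TMA10* not without batch 2 (0.54) or batch 3 (0.54).

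A few called genes were also low in *psh1Δ* cells, where none passed the test. *PRM7*, a pheromone-regulated gene, had 37.8, 30.8 and 33.7 CPM in *psh1Δ pGAL-3Flag-CSE4* cells, against 57.9, 55.7 and 58.6 CPM in WT (-0.75 ± 0.09, adjusted p = 0.00764). It had 36.0, 45.5 and 31.9 CPM in *psh1Δ* and 52.7 and 61.4 CPM in *pGAL-3Flag-CSE4*. *BSC1*, close to *PRM7* on chromosome IV, was at -0.73 ± 0.12 and *DCG1* at -1.04 ± 0.14. *BNA2* (-0.90 ± 0.14) and *BNA7* (-0.64 ± 0.09), both of NAD synthesis from tryptophan, were lower without overlap. In *psh1Δ* against WT the log2 changes of *PRM7*, *BSC1*, *DCG1*, *BNA2* and *BNA7* were -0.61, -0.58, -0.84, -0.64 and -0.71. 3 of these 5 calls depended on a batch: *BSC1* and *BNA7* lost their calls without batch 2 (-0.65 and -0.61) or batch 3 (-0.74 and -0.63), *BNA2* when any 1 of the batches was left out (-0.83, -0.90 and -0.96). Of the read-length stretches of *BSC1*, 85.6% were unique. *PSK2* (-0.69 ± 0.09), a PAS domain kinase, *EDS1* (-0.62 ± 0.11), a zinc cluster protein, and *YDL218W* (-0.68 ± 0.11) complete the 35. Without batch 2, *PSK2* and *EDS1* were at -0.68 and -0.50 and not called, and *YDL218W* lost its call when any 1 of batches 1, 2 and 3 was left out (-0.60, -0.75 and -0.69).

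**Figure D4:**
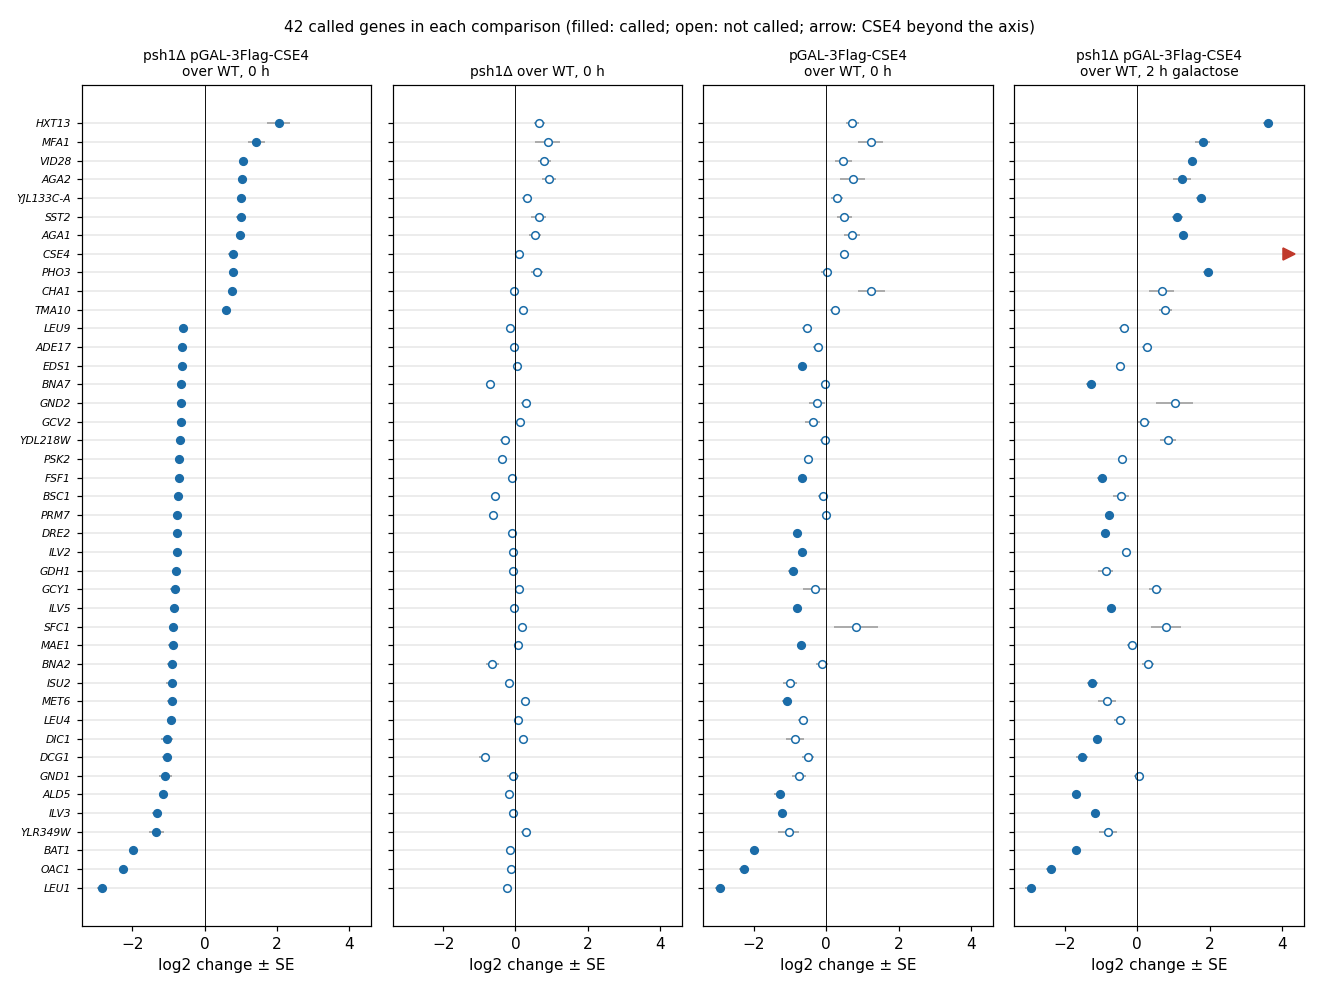
Log2 change ± SE (horizontal) of the 42 called genes other than *PSH1*, *BAR1*, *SNL1* and *YIL014C-A* (vertical, in order of the change at 0 h), in 4 comparisons with WT. Filled points passed the test and open points did not; the arrow marks *CSE4*, at 9.51 and off the axis after 2 h in galactose. Leucine pathway genes are at similar values in the *psh1Δ pGAL-3Flag-CSE4* and *pGAL-3Flag-CSE4* panels and near 0 in the *psh1Δ* panel.

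The same cultures were sampled again after 2 h in galactose, in libraries that played no part in the calls at 0 h. There 276 of 6209 genes (4.45%) were called between *psh1Δ pGAL-3Flag-CSE4* and WT, a count that was 74, 838 and 29 without batch 1, 2 and 3. Of the 35 genes lower at 0 h, 17 were called lower and 27 had a negative sign, with a median log2 change of -0.81. Of the 11 genes higher at 0 h, 9 were called higher and all 11 had a positive sign. Over all 6209 genes, 155 were called higher and 121 lower at 2 h. The strains were the same at both times, and *PSH1*, *BAR1*, *SNL1* and *YIL014C-A*, at or near 0 counts in them, recur among the 17. *CSE4*, which galactose induces from the plasmid, is among the 9. These counts are therefore not an independent check of the calls at 0 h. *LEU1* was at 142, 175 and 179 CPM in *psh1Δ pGAL-3Flag-CSE4* cells, against 1214, 1463 and 1145 CPM in WT (log2 change -2.95 ± 0.14), and *HXT13* at 271, 266 and 184 CPM, against 19.2, 25.3 and 14.4 CPM in WT. *GND1* had a log2 change of 0.04 ± 0.14 at 2 h. The time and the induction cannot be told apart in this comparison.

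Chromosome I stood apart in batch 1. The median log2 change of its 104 genes was 0.91 in the batch 1 strain, a 1.87-fold level with 86.5% of the genes over 1.5-fold, against 0.01 in batches 2 and 3 alike. All other chromosomes had medians between -0.0288 and 0.0249 in every batch. The *psh1Δ* strain of batch 1 had a median of 0.84 for chromosome I, and the batch 1 strain of the main comparison had 0.91 again at 2 h. None of the 104 genes was called by edgeR, and 33 were higher and 2 lower at an unadjusted p under 0.05. When the fit left out chromosome I genes, an alternative chosen after seeing the data, 56 genes were called, including all 46.

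**Figure D5:**
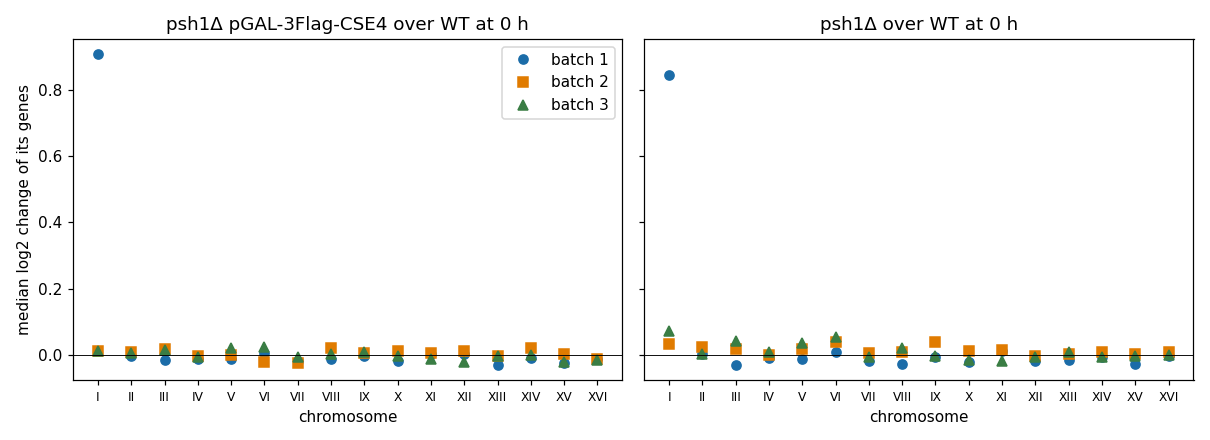
Median log2 change over WT at 0 h (vertical) of the genes of each chromosome (horizontal), by batch, for *psh1Δ pGAL-3Flag-CSE4* (left) and *psh1Δ* (right). The batch 1 points for chromosome I sit at 0.91 and 0.84, and the other points are close to 0.

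Library totals of the 6 libraries ran from 5463450 to 6321150 counts, and those of all 34 from 5258139 to 6836827. Libraries of a genotype differed by more than sampling noise, with chi-square per degree of freedom of 6.62 and 15 between batches 1 and 2 and of 52.8 to 77.5 in the 4 pairs with batch 3, so batch 3 stood apart in both genotypes. Left out in turn, batches 1, 2 and 3 left 54, 38 and 60 calls, of which 40, 31 and 36 were among the 46. Of 41 gene lists, 26 held no called gene. These 26 lists held 771 genes. At an unadjusted p under 0.05, 38 of these were higher and 21 lower, against 310 and 293 of all 6209 genes. The lists were picked by their lack of edgeR calls, and 0 of their genes were called by DESeq2 or by the likelihood ratio test. They included the 138 cytosolic ribosomal protein genes (median log2 change 0.03), 103 ribosome biogenesis genes (-0.01), 35 proteasome genes (-0.02), 34 general stress genes (0.05) and 24 DNA damage genes (-0.05). Within 20 kb of a centromere, 1 of 340 genes was called (*LEU1*, 0.294%), and within 20 kb of a chromosome end 1 of 192 (*CHA1*, 0.521%). Over all genes the share called was 0.741%.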

How the data were processed

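RNA was sequenced as single 50-base reads from an unstranded kit. Per the labels and the study's methods, the authors aligned reads to sacCer3 with TopHat 2.1.0, counted them per gene with HTSeq 0.6.1 (strand setting not given in the sources used here), removed genes with low counts and ran edgeR 3.12.0. The labels also list hg19 without a role. The 8 deposited tables hold raw counts, which were used here, in 64 columns; a library present in several tables had identical counts. The 64 columns of CPM, and the log2 fold change, p-value, adjusted p-value and call score columns of the authors' own comparisons, were not used.

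The deposited counts entered edgeR 4.0.16 under R 4.3.3 (TMM, glmQLFit and glmQLFTest, Benjamini-Hochberg adjustment over 6209 genes), on the libraries of the groups compared, with batch as a block. A gene was called at an adjusted p under 0.05 and at least 1.5-fold. CPM here (counts per 1e6, from the deposited counts) are TMM-normalized over all 34 libraries. Errors are SE of the log2 change. The labels give the replicate number as a batch, and same-batch libraries deviated together (correlations 0.45, 0.493 and 0.708). Mismatched pairs of batches 1 and 2 were at 0.265 and 0.277, and those with batch 3 between -0.55 and -0.467. The numbers were taken to pair the libraries, on weaker grounds for batches 1 and 2 than for batch 3. A group with at most 3 counts in every library was treated as at the floor. Files and reference matched in coordinates for 99.82% of 5714 genes. The methods were tested on simulated counts with the same level of replicate noise set for every gene. Strain differences such as those at the *BAR1* locus or on chromosome I were not simulated, so that test does not cover them.

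Named by rule were the called genes with the largest change (up to 15 in each direction, same sign in all batches, 10 or more counts on average in whichever genotype was higher), *PSH1*, *CSE4*, *LEU2*, strain markers, galactose genes, neighbours, and the members of each list with the smallest p. The remaining called genes, those near the fold limit, *DSF1*, *STE2*, *FUS1* and the *BAR1* locus list were named after their values were seen. Members and lists were chosen with earlier results of these data known. Alternatives were no block, DESeq2 1.42.0, the likelihood ratio test, legacy quasi-likelihood, DESeq2 size factors, a filter on low values (10 counts or more in 3 libraries or more), no fold limit, wider fits and each batch left out. The fits without chromosome I genes and without the legacy option, and the interaction tests, were added after seeing the data.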

Additional observations from a re-analysis of the deposited data

Results flagged for a closer look

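An interaction test compared the times under the same contrast, over the 12 libraries of both genotypes at 0 and 2 h. Only part of the named genes was searched for flags. These were the genes with the largest changes at 0 h, *PSH1*, *CSE4*, *LEU2* and their next neighbours, strain markers, galactose genes and branched-chain genes. Among them 2 passed the limits. The difference between *psh1Δ pGAL-3Flag-CSE4* and WT in *CSE4* was larger at 2 h than at 0 h by 8.72 on the log2 scale. For *PHO3* it was larger by 1.15. Over all 6209 genes this test called 24. It had terms for genotype and for batch at each time, but none for the culture. Samples of the same culture at 0 and 2 h were thus treated as independent.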

How the results depend on the processing

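The replicate number pairs the libraries by batch. Without the replicate block, calls numbered 8 (1 higher, 7 lower) for *psh1Δ pGAL-3Flag-CSE4* against WT at 0 h, 1 against *psh1Δ*, 1 against *pGAL-3Flag-CSE4*, 1 for *psh1Δ* against WT, 0 for *pGAL-3Flag-CSE4* against WT and 486 at 2 h, while 2 leucine genes were called lower and 0 mating genes higher. By the likelihood ratio test they numbered 69 (20 higher), 51, 18, 23, 50 and 557, in that order of comparisons. DESeq2 gave 41 at 0 h against WT, 38 of them among the 46, and 0 for *psh1Δ* against WT. That 0 misses the deleted gene itself, as *PSH1* had 2, 1 and 2 counts in *psh1Δ* against 241, 205 and 225 in WT. It therefore does not show a lack of difference. Fits over all 17 libraries at 0 h and all 34 libraries each called 5 higher, of 34 and 33 calls, and 0 mating genes were called higher or lower in the fit of 17.

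With each batch left out, calls ranged from 38 to 60 at 0 h against WT (12 to 18 higher, 26 to 43 lower), from 8 to 72 against *psh1Δ*, from 3 to 41 for *psh1Δ* against WT and from 29 to 838 at 2 h. Genes with log2 changes near 0 turned in sign with a batch left out, over ranges of -0.011 to 0.187 (*GAL1*), -0.037 to 0.056 (*GAL10*), -0.011 to 0.25 (*GAL7*), -0.168 to 0.035 (*GAL2*), -0.096 to 0.036 (*GAL80*) and -0.058 to 0.027 (*ILV1*), and *ILV1* was at 0.00 without the block. Of 882 values for 63 named genes under 14 settings, 753 kept their direction and side of the threshold, 118 lost the call and 3 gained it. Not all settings could change a call. Dropping the fold limit cannot lose one, and legacy quasi-likelihood returned the same 46 calls. Under each of these settings all 63 genes kept their side, which adds no support. The cause of these changes was not tested. *LEU1*, *OAC1*, *DRE2* and *PSH1* were called in all 14. Low counts limit genes such as *YLR349W*.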

Other observations

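An interaction test asked whether the change in *psh1Δ pGAL-3Flag-CSE4* at 0 h differed from the sum of those in *psh1Δ* and *pGAL-3Flag-CSE4*, over the 8 libraries of batches 2 and 3. edgeR called 0 of 6209 genes, and 325 had an unadjusted p under 0.05. No other tool was run for it.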
